A study of Rattus norvegicus with 4 samples.

Results

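NR8383, a line of macrophages first obtained by washing the lungs of a normal rat, was examined for genes of the p53 response to DNA damage after exposure to NM403 carbon nanotubes. The 9 genes were chosen by symbol as regulators and damage response targets of p53: Mdm2, Mdm4, Cdkn1a, Ccng1, Btg2, Gadd45a, Gadd45b, Sesn1 and Tp53inp1. The rule itself uses no measured value, but earlier results of these data were known when the genes were chosen. Of the 9 genes, 8 had a named probe, out of 16581 genes with one, through 11 probes printed as 23 spots per array (of 45598 non-control probes). The expression of Sesn1 was not analysed here, because no probe used here carries a name that matches it.

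Total RNA of 4 cultures, named replicates 1 to 4 and given as biological replicates, was hybridised to 1-colour Agilent arrays. All 4 cultures belonged to 1 group: NR8383 cells at 20 passages, given NM403 at a surface dose of 0.8 cm² of particle per cm² for 4 h. The design also has cultures without NM403, which are not analysed here, so no value below is a response to the nanotubes and no test between conditions was made. All cultures came from 1 established line, a model with a single cell type. The spread over the 4 arrays is the only error between cultures, while repeated spots give only an error within an array.

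A level is given throughout as log2 of the processed signal minus the array's 75th percentile over the probes detected on every array, so 0 is that percentile and 1 unit is 2-fold. A probe was detected where the scanner software called it well above background. The share of non-control spots well above background was 45.9% to 50.8% per array, no spot was saturated, and replicate 4 was marked for evaluation by the software. Over 7937 genes detected on every array, levels correlated across genes (which are not independent replicates) at Pearson's r = 0.996 between replicates 1 and 3 and 0.992 between replicates 2 and 4. For the other pairs r was 0.967 to 0.970. Of 11 macrophage marker genes, 8 were detected on every array, including Cd68 and Csf1r, against 47.9% of all named genes. Adgre1, Marco and C1qa were detected on none. Detection on every array was found for 0 of 5 epithelial, 1 of 4 fibroblast, 2 of 4 T cell, 0 of 1 B cell, 1 of 3 neutrophil and 2 of 3 endothelial markers with a probe. Those detected were Dcn (fibroblast), Cd3d and Cd4 (T cell), Camp (neutrophil), and Pecam1 and Cdh5 (endothelial). In such bulk samples, fewer cells with a transcript and less of it per cell cannot be told apart.

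The p53 protein is a transcription factor that is kept scarce by Mdm2, which marks it for degradation, and by the related Mdm4, which masks its activation domain. After DNA damage, kinases such as Atm free p53 from both, and it then activates genes that halt the cell cycle, repair DNA, limit oxidative stress or trigger cell death. Mdm2 is itself a target, which closes a feedback loop. Inhaled fibres and particles are studied for such damage because macrophages that take them up can produce reactive oxygen.

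The promoters of 3 members are shown because each holds a p53 half-site, the element that a pair of p53 subunits reads. The sequences are the 250 bases before the annotated start, from RefSeq assembly GRCr8, written 5′ to 3′ on the gene's strand with the half-site in capitals. They lie at chr20:7150682-7150931 (plus strand) for Cdkn1a, at chr10:25684877-25685126 (minus strand) for Ccng1 and at chr4:97486800-97487049 (minus strand) for Gadd45a.
Cdkn1a: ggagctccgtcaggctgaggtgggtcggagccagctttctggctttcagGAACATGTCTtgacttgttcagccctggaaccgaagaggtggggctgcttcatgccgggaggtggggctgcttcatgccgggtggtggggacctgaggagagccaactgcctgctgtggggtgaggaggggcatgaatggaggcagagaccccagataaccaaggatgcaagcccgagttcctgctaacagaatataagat
Ccng1: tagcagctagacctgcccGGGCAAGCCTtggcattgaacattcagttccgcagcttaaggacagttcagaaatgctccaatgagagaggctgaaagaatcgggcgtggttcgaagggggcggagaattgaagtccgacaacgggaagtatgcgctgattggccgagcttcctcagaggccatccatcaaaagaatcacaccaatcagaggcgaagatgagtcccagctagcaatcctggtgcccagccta
Gadd45a: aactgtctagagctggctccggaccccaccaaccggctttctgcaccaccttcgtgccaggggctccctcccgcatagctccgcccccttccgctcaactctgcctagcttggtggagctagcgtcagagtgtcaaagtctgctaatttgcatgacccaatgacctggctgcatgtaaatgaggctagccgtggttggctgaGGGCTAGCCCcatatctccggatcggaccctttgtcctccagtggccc

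The p53 half-site was searched as 10 bases, namely 3 purines, a C, 2 bases that are A or T, a G and 3 pyrimidines, which reads alike on both strands. It was found in 4 of the 8 members with a window (Cdkn1a, Ccng1, Gadd45a and Sesn1), and in 6.64% of 33469 windows of all genes. A pair of adjoining half-sites with at most 1 mismatch, the arrangement of a full p53 element, was found in 2 of the 8, Cdkn1a and Ccng1. It stood in 0.0598% of all windows. The members were chosen as regulators and targets of p53, so these shares describe the choice and are no test of it. In Cdkn1a it was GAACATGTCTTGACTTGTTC, beginning 201 bases before the start, and in Ccng1 it was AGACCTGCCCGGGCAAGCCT, beginning 242 bases before it. The GC box GGGCGG stood on either strand in 7 of the 8 windows, against 30.5% of all. The CCAAT box stood in 6 of the 8, against 34.0% of all. The cyclic AMP response element TGACGTCA stood in 1 of the 8, that of Btg2, against 1.59% of all. No half-site of a member overlapped one of these other motifs. Each window belongs to 1 annotated start, and the well-known p53 elements of Mdm2 and Gadd45a in human and mouse lie in introns, outside such windows. Tp53inp1 has no window in the table.

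Among the inhibitors of p53, Mdm2 was even across the cultures and the 2 Mdm4 probes detected on every array were not. Mdm2, the ubiquitin ligase that degrades p53, had levels of −0.94, −1.18, −1.02 and −1.19 in replicates 1 to 4 (probe A_44_P634946). The values of replicates 1 and 3 lay above those of replicates 2 and 4, but the whole range was 1.19-fold and the mean was −1.08 ± 0.12 (SD, n = 4). That order was turned when the scaling percentile was taken over all non-control probes, where Mdm2 read 2.25, 2.37, 2.15 and 2.35 with replicates 2 and 4 higher.

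Mdm4, the Mdm2 relative that inhibits p53 without degrading it, had levels of 0.80, −1.46, 0.84 and −1.71 on its brightest probe (A_43_P14080). High values came from replicates 1 and 3, which differed by 0.0477, low values came from replicates 2 and 4, which differed by 0.252, and a gap of 2.26 separated them. The mean was −0.38 ± 1.39 (SD, n = 4) and the range 5.89-fold, an SD larger than that of 99.7% of the 7937 genes. A second probe (A_43_P17202), made to another Mdm4 transcript record, gave −3.33, −5.48, −3.34 and −5.24, again with replicates 1 and 3 high, over a 4.45-fold range. Both probes were single spots detected on every array.

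The remaining Mdm4 probe (A_44_P1148522) gave −3.67 in replicate 1, −3.87 in replicate 3 and −6.09 in replicate 4, where it was not well above background. In replicate 2 its only spot was flagged as non-uniform and was left out, having read −0.19, with 1 of the 24 spots around it raised more than 4-fold. Its values in replicates 1 and 3 lay above that of replicate 4. Without replicate 2, this probe cannot show how the 4 cultures were arranged. Under the other scalings and background correction the range of the brightest Mdm4 probe was 4.53-fold to 5.74-fold.

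**Figure D1:**
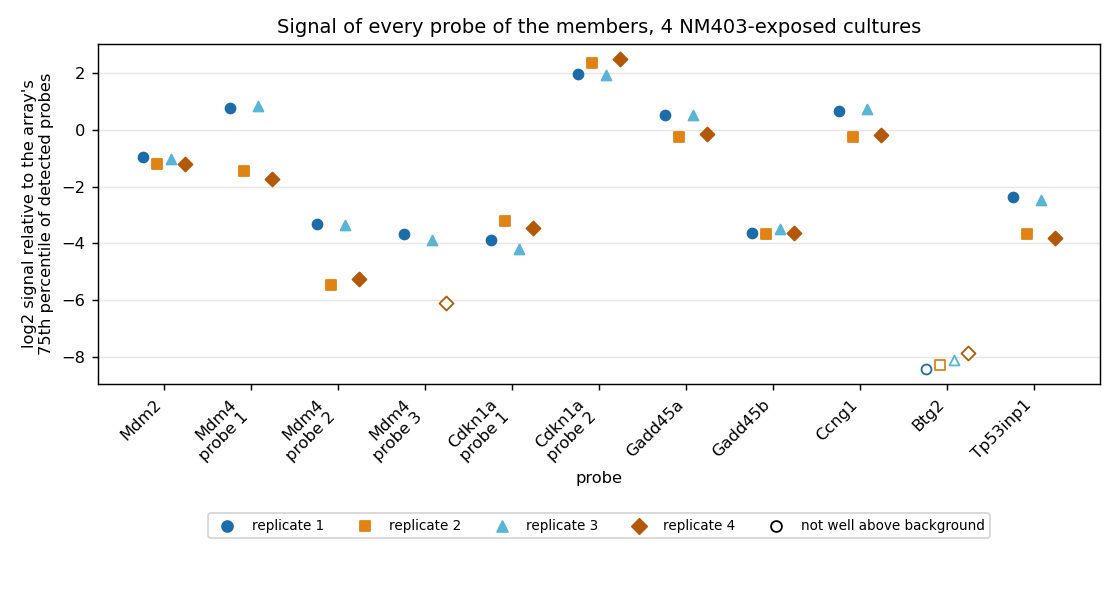
Log2 signal of all 11 member probes (x axis) relative to each array's 75th percentile of detected probes (y axis), with 1 symbol per replicate and open symbols where a probe was not well above background. In the 2 Mdm4 probes detected on every array, replicates 1 and 3 lay above replicates 2 and 4. The probes of Mdm2, Gadd45a, Ccng1 and Tp53inp1 had the same order, and Btg2 lay near −8 throughout. The remaining Mdm4 probe lacks replicate 2, left out as a flagged spot.

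Of the genes that hold the cell cycle, Cdkn1a and Ccng1 lay in opposite orders across the cultures and Btg2 was not detected. Cdkn1a, the cyclin-dependent kinase inhibitor p21, had levels of 1.98, 2.39, 1.93 and 2.49 on the probe printed 10 times per array (A_44_P914438). Here replicates 2 and 4 were the higher ones, with a mean of 2.20 ± 0.29 (SD, n = 4) and a 1.48-fold range. The SD over the spots within an array was 0.0385, 0.0407, 0.0501 and 0.0610 in replicates 1 to 4, each below the SD between cultures. A single-spot probe (A_44_P515275) gave −3.87, −3.20, −4.19 and −3.45, likewise with replicates 2 and 4 higher, and a 1.99-fold range.

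All 5 markers of dividing cells were detected on every array, and Cdk1, Ccnb1, Aurka and Plk1 were higher in replicates 2 and 4, like Cdkn1a. That order was common on the array, found for 47.2% of the 7937 genes. Cdk1, the kinase that drives entry into mitosis, had levels of 1.42, 1.80, 1.48 and 1.86. Mki67, the proliferation antigen Ki-67, went the other way with 1.03, −0.53, 1.11 and −0.47. The part of cell division in the Cdkn1a values was not tested.

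Ccng1, cyclin G1, which recruits protein phosphatase 2A to Mdm2, had levels of 0.68, −0.26, 0.74 and −0.18 (probe A_44_P235919). Replicates 1 and 3 were high, with no overlap with replicates 2 and 4, and the mean was 0.25 ± 0.54 (SD, n = 4). The range was 2.01-fold, just past the 2-fold line, and Gadd45a at 1.70-fold was the next member below it. Left without replicate 2, 3 or 4 and scaled anew, Ccng1 had a range of 1.89-fold, 1.93-fold or 1.98-fold. It was 1.53-fold with the percentile of all non-control probes and 1.74-fold with the array median. With detection called by the software's test of signal against background, a rule applied to the range after seeing the data, it was 1.88-fold.

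Btg2, a protein that slows proliferation and binds the Ccr4-Not deadenylase, gave −8.43, −8.29, −8.11 and −7.86 (probe A_64_P009803). Feature Extraction placed Btg2 well above background in 0 of the 4 cultures. The negative control spots of the same arrays had medians of −8.34, −8.20, −8.06 and −7.85, so Btg2 sat at that level in each, and its differences between cultures have no reading as expression. The lowest level of any detected probe was −6.23, −6.07, −5.85 and −5.63 on these arrays, so Btg2 has an upper bound there and no level.

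The Gadd45 proteins are small stress sensors that bind Cdk1, Pcna and the kinase Map3k4. Gadd45a, the family member best known as a direct p53 target, had levels of 0.52, −0.25, 0.52 and −0.13 (probe A_44_P216395). The high ones were again replicates 1 and 3, and the mean was 0.17 ± 0.41 (SD, n = 4).

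Gadd45b, a relative induced more by cytokines and NF-kB, had levels of −3.63, −3.67, −3.48 and −3.62 when its 2 spots were averaged, a mean of −3.60 ± 0.08 (SD, n = 4). This evenness came from spots that disagreed. Spot 1 of the probe (A_43_P16529) read −3.20, −3.62, −2.78 and −3.34, with replicates 1 and 3 higher. Spot 2 read −4.05, −3.72, −4.18 and −3.91, with replicates 1 and 3 lower. Neither spot was flagged. The spots differed by 0.856, 0.101, 1.39 and 0.564, a mean of 0.729, against a median of 0.0653 over the 684 probes printed 2 times and detected on every array. Only 1 of those 684 probes, Gadd45b itself, had a mean difference that large, and 4 had spots arranged in opposite orders. The level of Gadd45b is therefore given with no order between cultures.

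**Figure D2:**
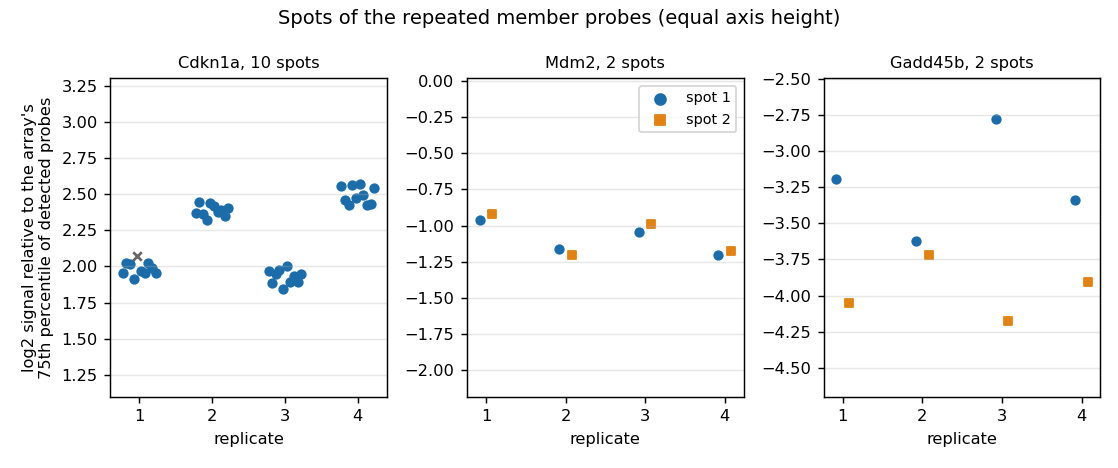
Log2 signal of each spot (y axis, equal height in each panel) by replicate (x axis) for the member probes with repeated spots that were detected, with circles for spot 1 (all spots in the Cdkn1a panel), squares for spot 2 and a cross for a flagged spot. The Cdkn1a and Mdm2 spots lie close together within each array, while those of Gadd45b lie 0.101 to 1.39 apart.

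Tp53inp1, a stress-induced nuclear protein that binds p53 and also serves in autophagy, had levels of −2.37, −3.69, −2.46 and −3.83 (probe A_44_P1086410). Replicates 1 and 3 were high and replicates 2 and 4 low, without overlap. The mean was −3.09 ± 0.78 (SD, n = 4), the range was 2.75-fold, and the SD was above that of 95.4% of the 7937 genes. Under the other scalings, quantile normalization and background correction the range stayed above 2-fold, and the lowest was 2.15-fold.

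Set against all genes, the members were detected often, and whether they varied more than the typical gene depended on the scaling. Of the 8 members with a probe, 7 were detected on every array, against 47.9% of the 16581 named genes. The median SD of those 7 was 0.410, against 0.234 over the 7937 genes, whose 10th and 90th percentiles were 0.0806 and 0.577. The SD was above that median for 5 of the 7 members, the exceptions being Mdm2 and Gadd45b. For Gadd45b that rests on the mean of its 2 spots, since spot 1 alone had an SD of 0.349 and spot 2 alone 0.196. With the percentile of all non-control probes the median SD was 0.328 for the members and 0.353 for all genes, so the members lay below the typical gene. It was 0.404 against 0.298 with the array median, 0.425 against 0.252 with quantile normalization and 0.394 against 0.209 with normexp background correction. Under these 4 settings the members above the median of all genes numbered 3, 4, 4 and 5. A range above 2-fold was found for 3 of the 7 (Mdm4, Tp53inp1 and Ccng1), against 13.6% of all these genes. With the percentile of all non-control probes it was 2 of the 7, against 18.5%.

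**Figure D3:**
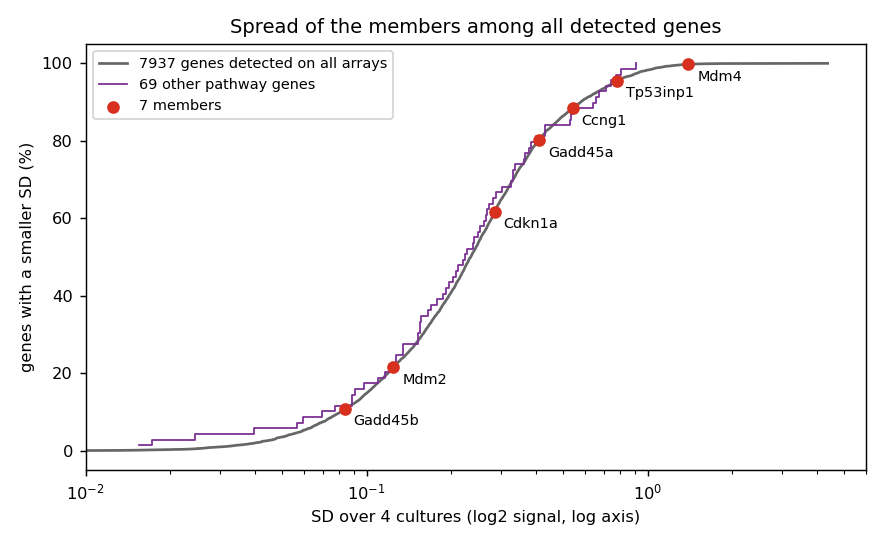
SD over the 4 cultures on the log2 scale (x axis, log scale) against the percentage of genes with a smaller SD (y axis), for the 7937 genes detected on every array (grey line), 69 other pathway genes (purple steps) and the 7 detected members (red points). Mdm4 (brightest probe) and Tp53inp1 sit at 99.7% and 95.4%, and Gadd45b (mean of its 2 spots) and Mdm2 at 10.8% and 21.5%.

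The arrangement of the cultures was shared with most of the array. Replicates 1 and 3 lay on one side of replicates 2 and 4 for 6 of the 7 members, and for 81.8% of the 7937 genes, a share close to that of the members. Replicates 1 and 3 were the higher ones for 5 of the 7 members (Mdm2, Mdm4, Gadd45a, Ccng1 and Tp53inp1), against 34.5% of all these genes. Cdkn1a was the 1 member with replicates 2 and 4 higher. The count of 5 depended on the scaling: it was 4 of 7 against 19.0% of genes with the percentile of all non-control probes, 4 against 24.6% with the array median, 5 against 27.7% with quantile normalization and 6 against 33.8% with normexp background correction. All 3 members with a range above 2-fold had replicates 1 and 3 higher, as did 80.2% of the 1079 genes with such a range. The share of spots well above background moved with this arrangement, at 50.8%, 47.5%, 49.6% and 45.9% in replicates 1 to 4, and its part in the values was not tested.

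**Figure D4:**
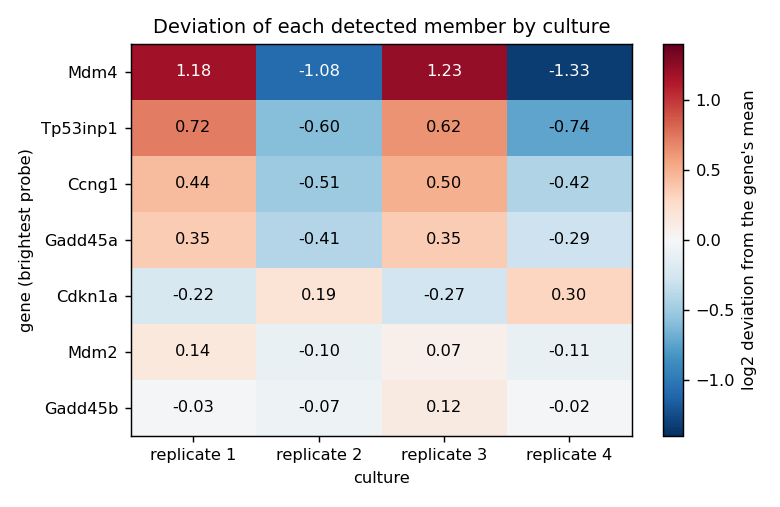
Deviation of each detected member (rows, brightest probe) from its own mean over the 4 cultures (columns), in log2 units, coloured red above and blue below the mean with the value printed. Replicates 1 and 3 are red and replicates 2 and 4 blue for 5 members, Cdkn1a is the reverse, and Gadd45b, as the mean of its 2 spots, deviates little.

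The genes whose levels followed Mdm4 most closely over the 4 arrays, by the root mean square difference of centred log2 values, were Rn5-8s (0.0116), Gxylt1 (0.0834) and Ro60 (0.0862). Rn5-8s, the gene of 5.8S ribosomal RNA, had levels of 0.79, −1.50, 0.81 and −1.75. On each array these lay within 0.04 of the brightest Mdm4 probe, and which transcripts that probe reads was not tested, since probe sequences were not used here. For Tp53inp1 they were Zc3h7a (0.0172), Plekha1 (0.0217) and Lysmd3 (0.0220). Between members, Ccng1 was closest to Tp53inp1, at 0.225, and Mdm4 and Tp53inp1 differed by 0.537.

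Around the members, 93 other genes of the pathway were listed by role, of which 85 had a named probe. Of the 85, 69 were detected on every array, 7 on some and 9 on none. Detection on every array was found for 47.9% of the 16581 named genes, the share to set beside each count by role below. The median SD of the 69 was 0.223, against 0.234 over all genes. A range above 2-fold was found for 11 of the 69 (15.9%, against 13.6% of all genes), all with replicates 1 and 3 higher, as for 80.2% of all genes with such a range. Of the 69, 56 (81.2%) had replicates 1 and 3 on one side of replicates 2 and 4, against 81.8% of all genes, with 31 of them higher and 25 lower in replicates 1 and 3. The shares with such a range and with such an arrangement were close to those of the whole array. The direction differed under this scaling, with 34.5% of all genes higher and 47.2% lower in replicates 1 and 3. Under the other scalings and corrections 19.0% to 33.8% of all genes were higher there, and the 69 were not counted. The 69 were listed with earlier results of these data known, and their direction was not tested.

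Upstream of p53, 12 of 14 further regulators were detected on every array, and Rchy1 and Cdkn2a on some. Ppm1d, the phosphatase that switches off p53 and Atm, was the most even with −3.29, −3.28, −3.25 and −3.29. Csnk1a1, casein kinase 1 alpha, an Mdm4 partner, was the least even with −0.93, −1.97, −0.92 and −2.45. Its replicates 1 and 3 were higher, as for 80.2% of all genes with a range above 2-fold. Of the damage kinases and their partners, 10 of 13 with a probe were detected on every array. Atm, the kinase that responds to double-strand breaks, had −3.86, −4.91, −3.81 and −5.45, a 3.10-fold range. Mapk14, the stress kinase p38 alpha, had 1.05, 1.07, 1.02 and 1.02. Plk2, a p53 target, and Tp53bp1, a damage mediator, were detected on no array.

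Downstream, 11 of 14 cell cycle genes were detected on every array. Cdkn1b, the p27 relative of Cdkn1a, had levels of −0.68, −1.64, −0.84 and −1.71, with replicates 1 and 3 higher, the reverse of Cdkn1a. Ccna2, cyclin A2, had −0.45, −0.64, −0.53 and −0.62. Among apoptosis targets 9 of 12 were detected on every array, and Pmaip1, Perp and Zmat3 on none. Bax, a pore former of the mitochondrial outer membrane, had 2.25, 2.36, 2.19 and 2.33, and Apaf1, the scaffold of the apoptosome, had −2.88, −4.08, −2.89 and −4.24. Bax was thus even while Apaf1 spanned 2.57-fold.

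Among repair and metabolism targets 9 of 10 were detected on every array, and Rrm2b, the p53-inducible subunit of ribonucleotide reductase, on none. Ddb2, a sensor of ultraviolet damage, had −1.41, −1.41, −1.44 and −1.43. Of the relatives of the members, 7 of 11 were detected on every array, and Gadd45g, Btg3 and Cdkn1c on none. Sesn3, a sestrin like Sesn1, had −2.50, −4.18, −2.48 and −3.92, a 3.25-fold range with replicates 1 and 3 higher. Tp53inp2, the paralog of Tp53inp1, differed from it in being even, with −3.49, −3.51, −3.69 and −3.74.

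All 11 partners of the members with a probe were detected on every array. Of these, 0 ranged over 2-fold, against 13.6% of the 7937 genes. Mios, a subunit of the GATOR2 complex that sestrins bind, had −3.63, −4.37, −3.66 and −4.20. Cnot8, a deadenylase bound by Btg proteins, had −0.23, −0.09, −0.31 and −0.20.

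**Figure D5:**
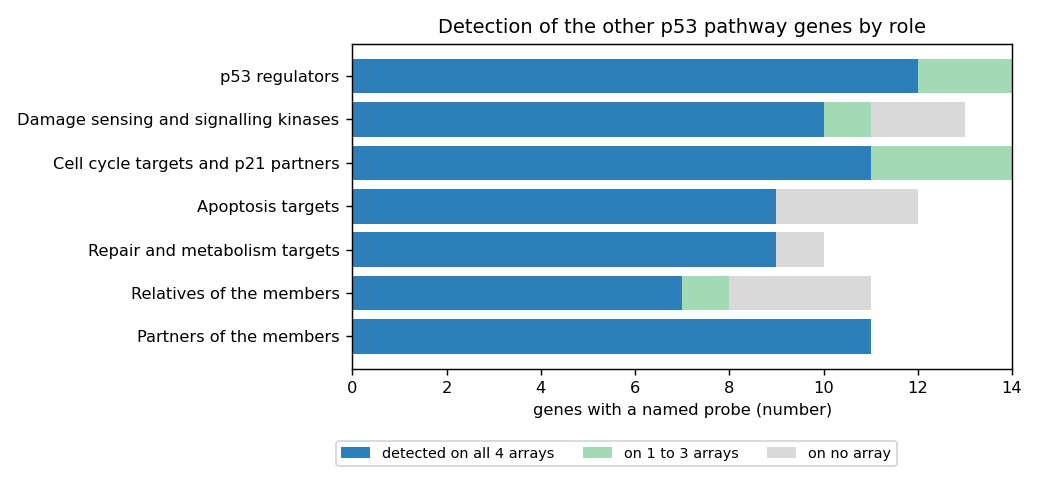
Number of genes with a named probe in each role list of the pathway (bars), split by detection on all 4 arrays (blue), on 1 to 3 arrays (green) or on no array (grey). All 11 partners of the members were detected on every array, while the relatives had 7 of 11, against 47.9% of all named genes.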

How the data were processed

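Each array's deposited file gives spot intensity from the scanner. The submitters' processing notes name Agilent Feature Extraction 11.0.1.1. Per the file headers, this intensity had its background subtracted and its trend across the array removed, arrays were not normalized to each other, and rn4 is the build of the probe design. Median intensity of spot and local background and the software's flags were also read from the deposited files.

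Control spots and spots flagged as outliers (623 to 1016 per array) were left out, spots of a probe were averaged as log2, and each array was scaled by its 75th percentile over the 15578 probes (34.2%) detected on all arrays. A repeated probe was detected where over 50% of its spots were. This scaling hides any change in total RNA. Probes were named by accession through the RefSeq table of GRCr8 (21109 with 1 symbol, 0 with several, 24489 with none). A gene took the level of its brightest probe. Each of the 4 arrays lay on the same slide, so slides could not be compared.

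The text names every member probe, the gene of largest and of smallest SD in each role list and the 3 genes closest to each of the 2 members of largest SD. In 1 role list the gene of largest SD is not reported here. The members, lists and rules were chosen with earlier results of these data known. Markers of cell types and the genes that few or no arrays detected were named besides, after their values were seen. The calculations used Python 3.11.15, numpy 2.4.6, pandas 2.3.3 and, for normexp, R 4.3.3 with limma 3.58.1, and were tested on simulated data. Alternatives changed the scaling, normalization, background correction, spot and probe rules, detection rule and arrays kept.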

Additional observations from a re-analysis of the deposited data

How the results depend on the processing

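The 7 members detected on every array stayed 7 under each detection rule and with each array left out, except 6 (Mdm4 lost) where all probes of a gene had to be detected. Their median SD was 0.328 to 0.440 under the other settings, against 0.353, 0.298, 0.252 and 0.209 for all genes under the 4 other scalings and corrections, and it turned below that of all genes (0.328 against 0.353) with the percentile of all non-control probes. It was 0.373 to 0.432 with 1 array left out in turn. The count with a range above 2-fold was 2 or 3, and Ccng1 was the one lost. It was 2 with the percentile of all non-control probes and with the array median, 2 with detection called by the test against background (applied to this count after seeing the data), and 2 without replicate 2, 3 or 4. The count with replicates 1 and 3 on one side of replicates 2 and 4 was 6 or 7. Pathway genes detected on every array numbered 62 to 74, with 69 in the text. Of 91 values for the SD of single members, 13 moved by more than 1.5 times: 6 of Gadd45b (0.0257 to 0.349), 3 of Cdkn1a (0.172 to 0.497), 2 of Mdm2 (0.0281 to 0.0583), 1 of Gadd45a (0.199) and 1 of Ccng1 (0.328). The cause was not tested. Levels also depended on the settings, since another percentile or the array median sets another zero. On the dimmest detected probe the level of Cdkn1a was −3.68 and that of Mdm4 −4.35, against 2.20 and −0.38 on the brightest. Taking 1 spot of Gadd45b alone, chosen after seeing the data, gave an SD of 0.349 or 0.196. Naming probes by a gene name column was not run, since the files used here hold none. Normexp used the median signals. No paired analysis was possible because there is 1 group. Signal near background limits Btg2 and the dimmest Mdm4 probe, and 4 arrays limit the precision of every SD.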
